A study of Mus musculus with 12 samples.

Results

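The type 1 axis was followed through 9 genes of the 22180 measured, taken by name: the cytokine Ifng (interferon-γ), the IL-12 receptor chains Il12rb1 and Il12rb2, the signal transducer Stat4, the transcription factors Tbx21 (T-bet), Eomes and Hlx, and the interferon-γ receptor chains Ifngr1 and Ifngr2. RNA came from alloreactive mouse T cells, which are T cells that respond to cells of another mouse strain. Resting C57BL6-Foxp3-GFP T cells, in which green fluorescent protein marks Foxp3, the factor that defines regulatory T cells, were plated at 200000 per well with 20000 BALB/c CD11c dendritic cells. CD8 Foxp3-positive cells were cultured for 4 days with IL-2 (5 ng/mL), TGFb (transforming growth factor-β, 5 ng/mL) and retinoic acid (40 nM) and sorted as GFP-positive. CD8 control cells had 4 days of IL-2 alone at 5 ng/mL and were sorted as GFP-negative. CD4 Foxp3-positive and CD4 control cells had the same 2 treatments and sorts after 5 days.

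Each of the 4 groups had 3 arrays, replicates A, B and C. All groups shared the strain, the reporter, the dendritic cells and IL-2. Wells were pooled before staining, and the labels give no ages and do not say whether replicates were separate cultures or animals, so p-values measure the spread between these arrays, which may be technical. The treatment and the GFP gate were varied as one and cannot be told apart, and neither can cell type and days of culture. Levels are log2 values on the scale of the arrays, with means ± SD taken over a group of 3 arrays, and differences are log2 differences ± SE with adjusted p from limma, called below 0.05. Values of different genes are not set against each other, because each probe set has its own brightness, and the number of arrays limits the precision.

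Type 1 immunity is the response to intracellular microbes. IL-12 from dendritic cells binds the receptor pair Il12rb1 and Il12rb2, which activates STAT4. STAT4 and T-bet then act on the Ifng gene, Eomes shares part of T-bet's work, above all in CD8 cells, and Hlx cooperates with T-bet. Interferon-γ signals back to T cells through Ifngr1 and Ifngr2. TGF-β is known to hold this programme down, and T cells of the type 1 kind are known to carry little Ifngr2.

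Ifng, Il12rb2, Tbx21 and Eomes fell in Foxp3-positive cells of both lineages, by 3.36-fold to 30.0-fold, while Ifngr2 rose in both. Il12rb1 also fell in both, by 1.36-fold in CD8 cells, a narrow call, and by 7.33-fold in CD4 cells. Among the 9 genes, 5 fell and 1 rose in CD8 Foxp3-positive against CD8 control cells, where 20.0% of all genes were called, 10.6% as lower and 9.39% as higher. In CD4 Foxp3-positive against CD4 control cells 6 fell and 2 rose, where 22.5% of all genes were called, 10.4% as lower and 12.1% as higher. The median difference of the 9 genes was -0.44 in CD8 and -1.75 in CD4 cells, and that of all genes was -0.02 in CD8 and 0.0034 in CD4 cells. The arrays of the 2 groups did not overlap for 6 of the 9 genes in CD8 cells (33.5% of all genes) and for 8 of the 9 in CD4 cells (37.8% of all genes).

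**Figure D1:**
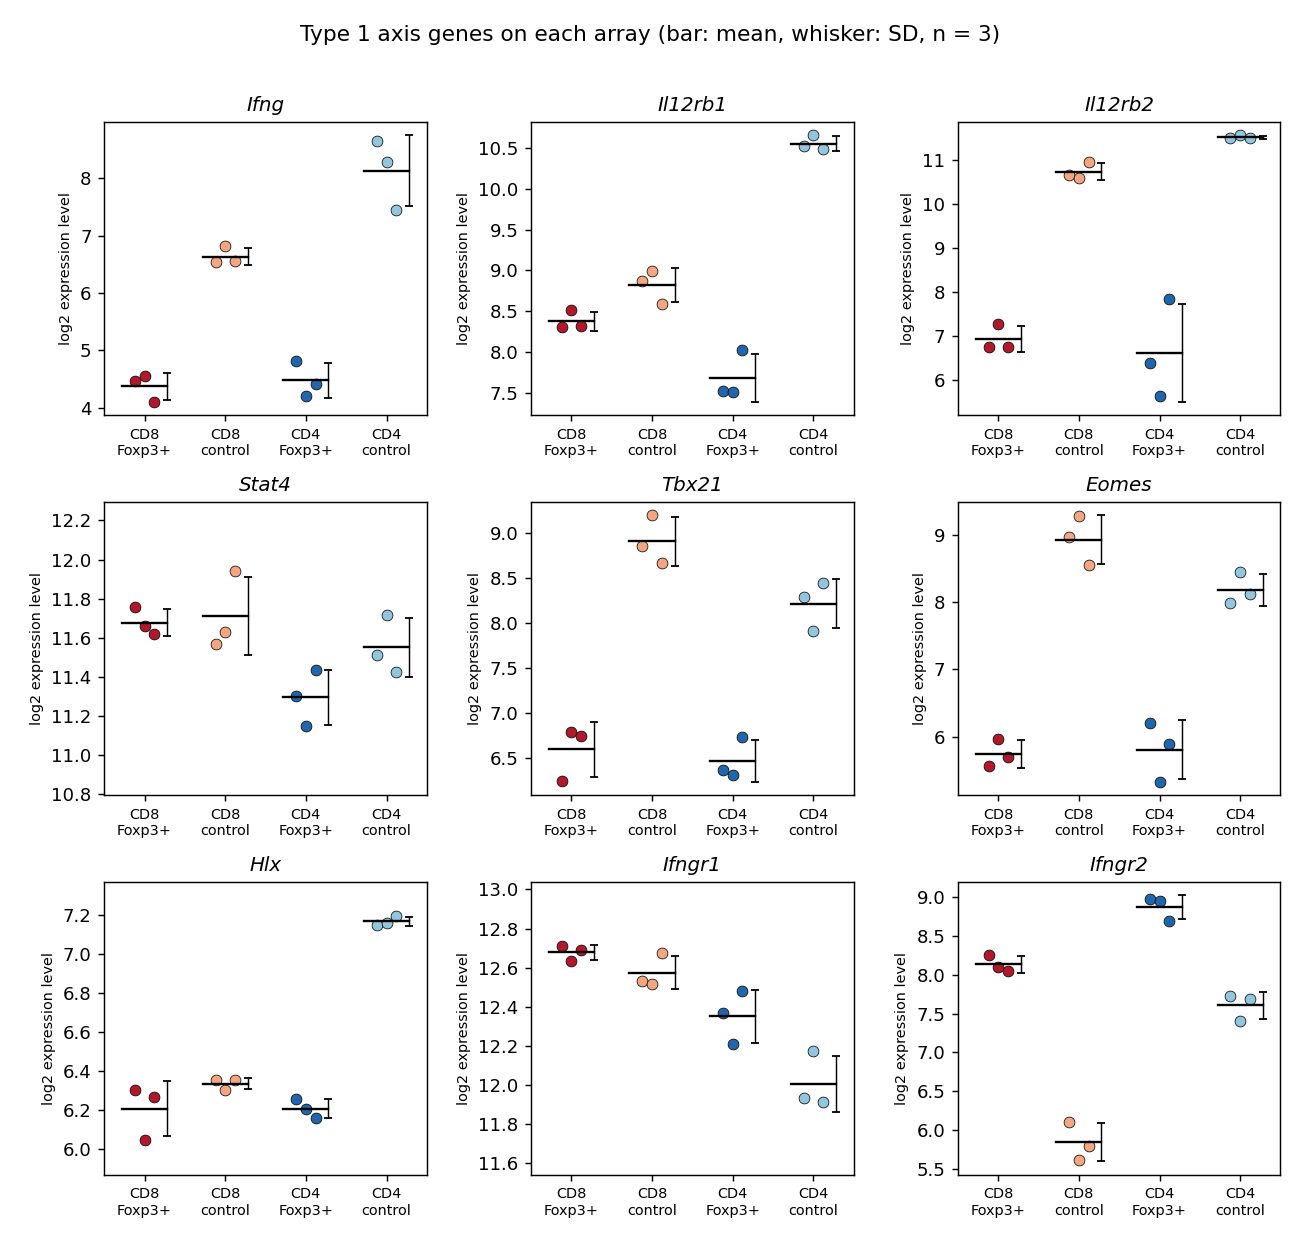
Log2 level (y axis of each panel, with its own range) of the 9 genes on each of the 12 arrays, by group (x axis). Points are arrays and bars are group means. For Ifng, Il12rb2, Tbx21 and Eomes both Foxp3-positive groups lie below both control groups, and for Ifngr2 they lie above.

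The sequences before the starts of Ifng, Il12rb2, Tbx21 and Eomes, which fell in both lineages, are given because their levels moved together. Il12rb1 also fell in both, and no promoter entry was at hand for it. They are the 250 bases before the annotated start in RefSeq on GRCm38.p6, 5′ to 3′ on the gene's strand. Ifng lies on the plus strand with chr10:118440796-118441045 shown, Il12rb2 on the minus strand with chr6:67376189-67376438, Tbx21 on the minus strand with chr11:97115332-97115581, and Eomes on the plus strand with chr9:118477939-118478188. Capitals mark a match to TTCNNNGAA, the gamma-activated site to which STAT proteins bind.
Ifng: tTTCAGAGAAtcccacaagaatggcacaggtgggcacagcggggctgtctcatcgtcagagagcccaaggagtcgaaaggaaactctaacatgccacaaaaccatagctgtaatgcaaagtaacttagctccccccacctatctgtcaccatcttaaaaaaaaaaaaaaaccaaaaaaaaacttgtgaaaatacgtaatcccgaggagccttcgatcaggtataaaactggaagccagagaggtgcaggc
Il12rb2: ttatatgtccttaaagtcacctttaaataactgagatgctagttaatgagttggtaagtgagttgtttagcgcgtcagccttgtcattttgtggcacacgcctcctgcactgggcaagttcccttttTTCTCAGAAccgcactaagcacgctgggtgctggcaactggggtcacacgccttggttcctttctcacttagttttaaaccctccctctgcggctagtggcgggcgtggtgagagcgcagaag
Tbx21: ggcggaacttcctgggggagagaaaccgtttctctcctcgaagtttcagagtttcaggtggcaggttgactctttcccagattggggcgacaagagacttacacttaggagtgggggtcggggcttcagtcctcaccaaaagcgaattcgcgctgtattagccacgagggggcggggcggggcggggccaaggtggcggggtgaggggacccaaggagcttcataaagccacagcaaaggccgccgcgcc
Eomes: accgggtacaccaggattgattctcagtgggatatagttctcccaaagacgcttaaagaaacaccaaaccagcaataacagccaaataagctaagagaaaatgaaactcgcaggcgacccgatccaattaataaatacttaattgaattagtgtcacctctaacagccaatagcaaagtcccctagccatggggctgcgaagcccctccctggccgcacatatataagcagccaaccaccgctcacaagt
Such a match began 249 bases before the start in Ifng and 123 bases before it in Il12rb2, and 7.02% of 32807 mouse promoters of this length held one. The T-box motif GGTGTGA (3.33% of promoters), the Runx motif TGTGGT (14.0%), the Smad palindrome GTCTAGAC (0.168%) and the retinoid half-site AGGTCA (14.0%) were searched on both strands, and none was in these 4 windows. The motifs do not overlap one another. Of the other genes Stat4, Hlx, Ifngr1 and Ifngr2 had an entry, and 1 of the 2 Stat4 entries held a retinoid half-site 69 bases before the start. A match is a description of letters and not of binding.

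Ifng encodes the cytokine that defines type 1 cells. Its log2 level was 4.47, 4.55 and 4.10 in CD8 Foxp3-positive arrays A, B and C, against 6.54, 6.81 and 6.55 in CD8 control arrays. In CD4 cells it was 4.81, 4.20 and 4.41 in Foxp3-positive arrays, against 8.66, 8.29 and 7.46 in controls. Every Foxp3-positive array was below every control array, the 2 Foxp3-positive groups overlapped, and CD4 control arrays were above all CD8 control arrays. Ifng fell by 2.26 ± 0.25 in CD8 cells (4.80-fold, adjusted p = 3.10e-05) and by 3.66 ± 0.25 in CD4 cells (12.6-fold, adjusted p = 3.16e-07). The Ifng level of every Foxp3-positive array was below the medians of the arrays (5.23 to 5.33), and since no background level is known, these folds may understate the falls. In bulk RNA, fewer cells with a transcript and less transcript per cell cannot be told apart.

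The difference between these 2 falls was itself called, at 1.40 ± 0.36 (CD8 minus CD4 difference, adjusted p = 0.0211). It was not called without CD8 Foxp3-positive replicate A or B, CD8 control replicate A, CD4 Foxp3-positive replicate B or CD4 control replicate B, left out in turn (adjusted p = 0.0501 to 0.0548). Control CD8 cells had less Ifng than control CD4 cells (-1.50 ± 0.25, 2.82-fold, adjusted p = 0.000891). In Foxp3-positive cells the CD8 minus CD4 difference of Ifng was -0.10 ± 0.25 (95% interval -0.65 to 0.45, adjusted p = 0.906), so the difference of the falls is mostly that between the controls.

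Il12rb2, the chain of the IL-12 receptor that recruits STAT4, had the widest span of group means among the 9 genes. Its level was 6.75, 7.27 and 6.76 in CD8 Foxp3-positive arrays, against 10.67, 10.59 and 10.95 in CD8 control arrays. CD4 Foxp3-positive arrays had 6.40, 5.63 and 7.84, against 11.50, 11.57 and 11.51 in CD4 control arrays. All Foxp3-positive arrays were far below all controls, and the CD4 Foxp3-positive arrays were spread widely, with replicate C highest and replicate B lowest. This was not particular to Il12rb2, since replicate C was also the highest of these 3 arrays for Cd8a and Gzmb (see the cell type markers below). Il12rb2 fell by 3.81 ± 0.39 in CD8 cells (14.0-fold, adjusted p = 1.44e-05) and by 4.91 ± 0.39 in CD4 cells (30.0-fold, adjusted p = 1.01e-06).

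These falls of Il12rb2 were not called different, at 1.10 ± 0.55 (95% interval -0.10 to 2.29, adjusted p = 0.235), and without CD4 Foxp3-positive replicate C the difference was 1.70 and called (adjusted p = 0.00235). Between lineages the Il12rb2 difference in Foxp3-positive cells was 0.30 ± 0.39 (95% interval -0.54 to 1.15, adjusted p = 0.785). Without CD4 Foxp3-positive replicate C it was 0.91 and called (adjusted p = 0.0324). In controls CD8 arrays lay below CD4 arrays with no overlap, and the difference of -0.79 ± 0.39 was not called (adjusted p = 0.195). Leaving out the same CD4 Foxp3-positive array, or all Foxp3-positive arrays, led to a call of that difference (adjusted p = 0.0109 and 0.00202).

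Il12rb1, the chain shared by the IL-12 and IL-23 receptors, differed in its fall between lineages more than any other of the 9 genes. Its level was 8.30, 8.51 and 8.31 in CD8 Foxp3-positive arrays, against 8.87, 8.997 and 8.58 in CD8 control arrays. It was 7.52, 7.50 and 8.02 in CD4 Foxp3-positive arrays, against 10.52, 10.66 and 10.49 in CD4 control arrays. The CD8 groups stood close together without overlap, and the CD4 groups were wide apart, with controls highest and Foxp3-positive cells lowest of all 4 groups. Il12rb1 fell by 2.87 ± 0.15 in CD4 cells (7.33-fold, adjusted p = 2.04e-08) and by 0.44 ± 0.15 in CD8 cells (1.36-fold, adjusted p = 0.0485).

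The CD8 call of Il12rb1 was narrow: it was lost without any 1 of 9 arrays (adjusted p = 0.0512 to 0.176), and kept only without replicate B or C of CD4 Foxp3-positive cells or replicate C of CD8 control cells. With replicate letters as a block it had adjusted p = 0.0694, and with p-values adjusted over all clusters 0.0678. The CD8 minus CD4 difference of the 2 falls was 2.43 ± 0.21 (adjusted p = 1.12e-05). Lineages were ordered one way in controls, with CD8 lower by 3.33-fold (-1.74 ± 0.15, adjusted p = 3.34e-06), and the other way in Foxp3-positive cells, with CD8 higher by 1.62-fold (0.69 ± 0.15, adjusted p = 0.0146). The call in Foxp3-positive cells was lost without CD8 Foxp3-positive replicate B or CD4 Foxp3-positive replicate A or B (adjusted p = 0.0687 to 0.0698) and with the 2 groups fitted alone (adjusted p = 0.0503).

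Stat4 carries the IL-12 signal to the nucleus. Its level was 11.76, 11.66 and 11.62 in CD8 Foxp3-positive arrays, against 11.57, 11.63 and 11.94 in CD8 control arrays. It was 11.30, 11.15 and 11.43 in CD4 Foxp3-positive arrays, against 11.51, 11.72 and 11.43 in CD4 control arrays. The groups overlapped in both lineages. The Stat4 difference was -0.04 ± 0.12 in CD8 cells (95% interval -0.29 to 0.22, adjusted p = 0.892) and -0.25 ± 0.12 in CD4 cells (95% interval -0.51 to 0.0026, adjusted p = 0.155), so a Stat4 change as large as the falls of Il12rb2 lay outside both intervals.

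Between lineages in Foxp3-positive cells every CD8 array had more Stat4 than every CD4 array, and the difference of 0.38 ± 0.12 was not called (adjusted p = 0.102). It was called with a trended, robust variance prior (adjusted p = 0.0313) and with dim genes left out (adjusted p = 0.0452). In controls the Stat4 difference was 0.16 ± 0.12 (adjusted p = 0.414).

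Tbx21 encodes T-bet, the factor that directs type 1 differentiation. Its level was 6.25, 6.80 and 6.75 in CD8 Foxp3-positive arrays, against 8.85, 9.20 and 8.67 in CD8 control arrays. It was 6.36, 6.31 and 6.73 in CD4 Foxp3-positive arrays, against 8.29, 7.92 and 8.45 in CD4 control arrays. Foxp3-positive arrays of both lineages overlapped each other and lay below every control array, and CD8 controls lay above CD4 controls. Tbx21 fell by 2.31 ± 0.19 in CD8 cells (4.96-fold, adjusted p = 2.00e-06) and by 1.75 ± 0.19 in CD4 cells (3.36-fold, adjusted p = 1.73e-05), and the difference of the 2 was not called (-0.56 ± 0.27, 95% interval -1.14 to 0.02, adjusted p = 0.208). Control CD8 cells had more Tbx21 than control CD4 cells (0.69 ± 0.19, adjusted p = 0.0198), a call lost without CD8 control replicate B or CD4 control replicate B (adjusted p = 0.0874 and 0.0935). In Foxp3-positive cells the lineage difference of Tbx21 was 0.13 ± 0.19 (95% interval -0.28 to 0.54, adjusted p = 0.818).

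Eomes, the T-box relative of T-bet in cytotoxic and memory CD8 cells, followed a like order of groups. Its level was 5.56, 5.97 and 5.69 in CD8 Foxp3-positive arrays, against 8.96, 9.27 and 8.55 in CD8 control arrays. It was 6.20, 5.33 and 5.90 in CD4 Foxp3-positive arrays, against 7.98, 8.45 and 8.12 in CD4 control arrays. CD8 controls were above CD4 controls on every array, and the Foxp3-positive arrays of both lineages overlapped at the low end. Eomes fell by 3.19 ± 0.22 in CD8 cells (adjusted p = 5.22e-07), and fell by 2.37 ± 0.22 in CD4 cells (5.18-fold, adjusted p = 5.07e-06).

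The CD8 minus CD4 difference of the Eomes falls was -0.81 ± 0.32 and not called (95% interval -1.50 to -0.13, adjusted p = 0.117), and without CD4 Foxp3-positive replicate B it was -1.05 and called (adjusted p = 0.0331). Control CD8 cells had more Eomes than control CD4 cells (0.74 ± 0.22, adjusted p = 0.0315), a call lost without CD8 control replicate A or B or CD4 control replicate A or C (adjusted p = 0.0861 to 0.13). In Foxp3-positive cells the lineage difference of Eomes was -0.07 ± 0.22 (95% interval -0.56 to 0.41, adjusted p = 0.930).

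Hlx, a homeobox factor that works with T-bet in type 1 helper cells, moved in CD4 cells. Its level was 6.30, 6.05 and 6.27 in CD8 Foxp3-positive arrays, against 6.35, 6.30 and 6.35 in CD8 control arrays. It was 6.26, 6.21 and 6.16 in CD4 Foxp3-positive arrays, against 7.15, 7.16 and 7.19 in CD4 control arrays. CD4 controls stood alone at the top, and the other 3 groups lay near one another, with CD8 Foxp3-positive arrays overlapping both of the others. Hlx fell by 0.96 ± 0.09 in CD4 cells (1.94-fold, adjusted p = 3.19e-06), and its difference in CD8 cells was -0.13 ± 0.09 (95% interval -0.31 to 0.06, adjusted p = 0.369). The 2 differences were themselves called different (0.83 ± 0.12, adjusted p = 0.000686). Hlx was lower in CD8 than in CD4 controls (-0.83 ± 0.09, adjusted p = 1.94e-05), and the Foxp3-positive lineages differed by -0.0017 ± 0.09 (95% interval -0.19 to 0.18, adjusted p = 0.994).

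**Figure D2:**
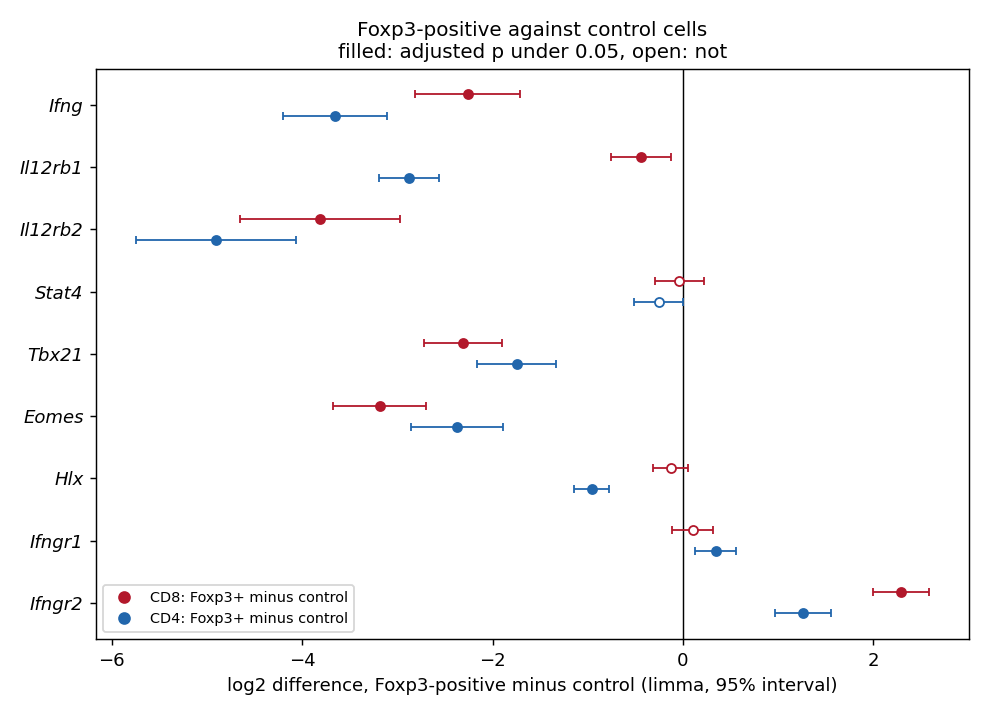
Log2 difference of Foxp3-positive minus control cells (x axis, with 95% intervals from limma) for the 9 genes (y axis), in CD8 cells above and CD4 cells below on each line. Filled points have an adjusted p under 0.05. Il12rb1 lies at -0.44 in CD8 and -2.87 in CD4 cells, and Ifngr2 lies above 0 in both.

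Ifngr2, the signalling chain of the interferon-γ receptor, rose in Foxp3-positive cells of both lineages, where the cytokine fell. Its level was 8.26, 8.10 and 8.04 in CD8 Foxp3-positive arrays, against 6.11, 5.62 and 5.80 in CD8 control arrays. It was 8.98, 8.94 and 8.69 in CD4 Foxp3-positive arrays, against 7.72, 7.41 and 7.69 in CD4 control arrays. No 2 groups overlapped, and the order from high to low was CD4 Foxp3-positive, CD8 Foxp3-positive, CD4 control and CD8 control. Ifngr2 rose by 2.29 ± 0.14 in CD8 cells (4.89-fold, adjusted p = 1.08e-07) and by 1.26 ± 0.14 in CD4 cells (2.40-fold, adjusted p = 1.54e-05). The rise was larger in CD8 cells by 1.03 ± 0.19 (adjusted p = 0.00332). CD8 cells had less Ifngr2 than CD4 cells in the Foxp3-positive groups (-0.74 ± 0.14, 1.67-fold, adjusted p = 0.00626) and in the controls (-1.77 ± 0.14, 3.40-fold, adjusted p = 1.53e-06). In controls Ifng was lower in CD8 cells too, at -1.50 ± 0.25.

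Ifngr1, the chain that binds interferon-γ, changed little. Its level was 12.71, 12.63 and 12.69 in CD8 Foxp3-positive arrays, against 12.53, 12.52 and 12.67 in CD8 control arrays. It was 12.37, 12.21 and 12.48 in CD4 Foxp3-positive arrays, against 11.93, 12.17 and 11.91 in CD4 control arrays. The CD8 groups overlapped and the CD4 groups did not. Ifngr1 rose by 0.35 ± 0.10 in CD4 cells (1.27-fold, adjusted p = 0.0240), and the difference in CD8 cells was 0.10 ± 0.10 (95% interval -0.11 to 0.32, adjusted p = 0.572). The CD4 call was lost with the 2 groups fitted alone (adjusted p = 0.0692) and without replicate A or C of either CD4 group (adjusted p = 0.0656 to 0.0928).

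The CD8 minus CD4 difference of the Ifngr1 effects was -0.24 ± 0.14 (adjusted p = 0.313). CD8 controls had more Ifngr1 than CD4 controls (0.57 ± 0.10, 1.48-fold, adjusted p = 0.00118). In Foxp3-positive cells the difference of 0.33 ± 0.10, with no overlap of arrays, was not called (adjusted p = 0.0960). It was called with a trended, robust variance prior (adjusted p = 0.0162) and with dim genes left out (adjusted p = 0.0384).

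Counted over the 9 genes, the CD8 and CD4 effects differed for Ifng, Il12rb1, Hlx and Ifngr2, all with a higher CD8 value, where 13.5% of all genes passed this test, 6.01% as higher and 7.48% as lower. None had a called lower CD8 value by limma, and 1 had an unadjusted p below 0.05. In controls the lineages differed for 7 of the 9 genes, where 20.9% of all genes were called, 12.1% as higher and 8.76% as lower in CD8 cells: Tbx21, Eomes and Ifngr1 were higher in CD8 cells, and Ifng, Il12rb1, Hlx and Ifngr2 were lower. The arrays of the 2 controls did not overlap for 8 of the 9 genes, as for 33.7% of all genes. In Foxp3-positive cells Il12rb1 was higher and Ifngr2 lower in CD8 cells, 2 of the 9 where 4.71% of all genes were called, 2.41% as higher and 2.30% as lower. Arrays did not overlap there for 4 of the 9 genes, as for 22.7% of all genes. The comparisons share arrays, so their counts are not independent.

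**Figure D3:**
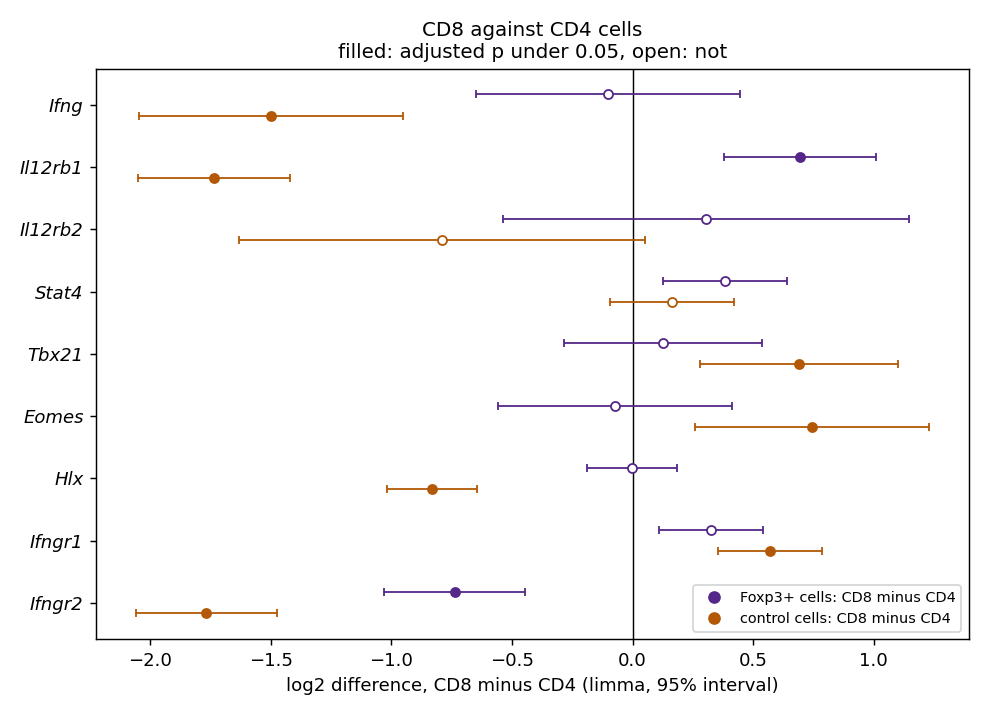
Log2 difference of CD8 minus CD4 cells (x axis, with 95% intervals from limma) for the 9 genes (y axis), in Foxp3-positive cells above and in controls below on each line. Filled points have an adjusted p under 0.05. For Ifng, Tbx21, Eomes and Hlx the Foxp3-positive values lie between -0.10 and 0.13.

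The group order of each gene repeated in part across the 12 arrays, which share 4 group means, so correlations describe mostly those means. Tbx21 and Eomes had Pearson r = 0.972 and Ifng and Il12rb2 r = 0.938, while Tbx21 and Ifngr2 had r = -0.894. Stat4 had r between 0.03 and 0.52 with every gene except Ifngr2 (r = -0.628). Among 1705 genes whose group means span at least 1, those most like Tbx21 were Asns, an asparagine synthetase (r = 0.987), Hmox1, a haem oxygenase (r = 0.981), and the histone gene H2bc9 (r = 0.981). Most like Eomes were the semaphorin Sema4a (r = 0.986), the ion channel gene Trpv2 (r = 0.986) and H2bc9 (r = 0.984). Most like Ifng were Mx1, an interferon-induced antiviral gene (r = 0.992), the inositol kinase Itpk1 (r = 0.982) and Baiap2 (r = 0.977). Most like Il12rb2 were Eif4ebp1, a brake on translation (r = 0.982), Sytl2, a vesicle transport gene (r = 0.980), and Pik3ap1, an adaptor of PI3 kinase (r = 0.977). H2bc9 belongs to a histone family of close copies, so its probes may read more than 1 gene.

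**Figure D4:**
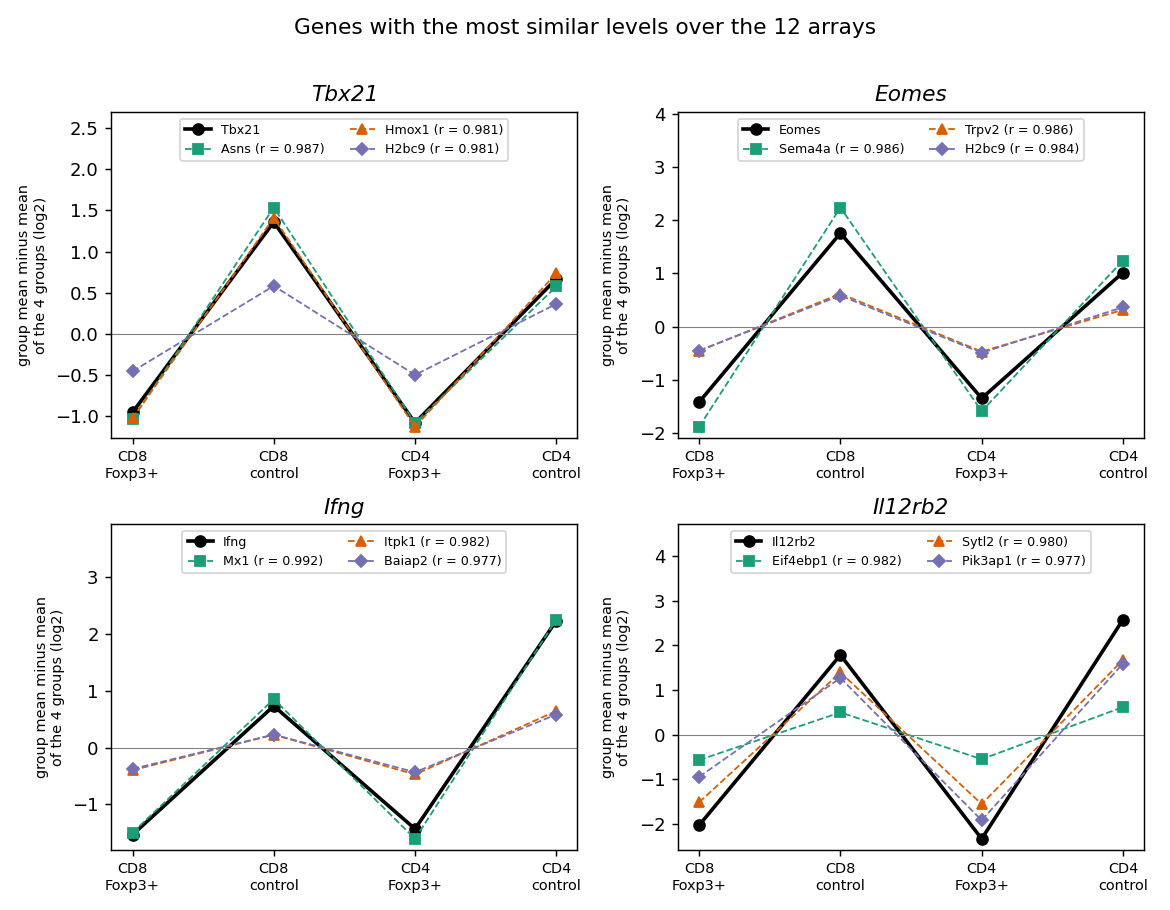
Group means of Tbx21, Eomes, Ifng and Il12rb2 (black) and of the 3 genes, among the 1705 compared, most correlated with each over the 12 arrays. Values are log2 level minus the mean of the 4 groups (y axis) by group (x axis, lines only join the groups). For Tbx21 and Eomes CD8 controls are highest, and for Ifng and Il12rb2 CD4 controls are highest.

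Of 9 measured partners of IL-12 and IL-18 signalling, 3 rose and 2 fell in CD8 cells, and 3 rose and 3 fell in CD4 cells. For this list and those below, 9.39% of all genes rose and 10.6% fell in CD8 cells, and 12.1% rose and 10.4% fell in CD4 cells. For the difference of effects, 6.01% were higher and 7.48% lower. For CD8 against CD4 cells the shares were 12.1% and 8.76% in controls, and 2.41% and 2.30% in Foxp3-positive cells. Il6st, the gp130 chain of IL-6 family receptors, was at 9.92 ± 0.14 in CD8 Foxp3-positive against 8.22 ± 0.36 in CD8 control cells, and at 10.30 ± 0.08 in CD4 Foxp3-positive against 8.86 ± 0.33 in CD4 control cells. It rose by 1.70 ± 0.18 in CD8 (adjusted p = 2.10e-05) and by 1.44 ± 0.18 in CD4 cells (adjusted p = 6.55e-05). Il18rap, the accessory chain of the IL-18 receptor, fell by 1.44 ± 0.18 in CD8 (adjusted p = 6.76e-05) and by 1.04 ± 0.18 in CD4 cells (adjusted p = 0.000795). Jak2, the kinase bound to Il12rb2, fell by 1.07 ± 0.12 in CD4 cells (adjusted p = 2.26e-05), and its CD8 difference was -0.10 ± 0.12 (adjusted p = 0.668). Il18r1, the binding chain of the IL-18 receptor and chosen after its values were seen, fell by 1.40 ± 0.16 in CD8 (adjusted p = 3.80e-05) and rose by 1.02 ± 0.16 in CD4 cells (adjusted p = 0.000417), a called difference of effects (-2.43 ± 0.23, adjusted p = 2.40e-05). Il27ra, the IL-27 receptor, differed by 0.05 ± 0.10 in CD8 and 0.01 ± 0.10 in CD4 cells, and neither was called.

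Of 11 further transcription factors tied to type 1 cells, 4 rose and 3 fell in CD8 cells, and 2 rose and 8 fell in CD4 cells. The effects of the lineages were called different for 7 of the 11, all with a higher CD8 value, where 6.01% of all genes were called as higher. In controls 6 of the 11 were lower in CD8 than in CD4 cells and 1 was higher. In Foxp3-positive cells 1 was higher and 1 lower. Runx1, a Runt factor of T cells, rose by 1.71 ± 0.12 in CD8 (adjusted p = 4.65e-07) and by 0.37 ± 0.12 in CD4 cells (adjusted p = 0.0382), and the CD4 call was lost without CD8 Foxp3-positive replicate A or B, without any 1 array of the CD4 groups, with the replicate block and with adjustment over all clusters (adjusted p = 0.0505 to 0.108). With the replicate block 1 of the 11 factors rose in CD4 cells. Prdm1, which encodes the effector factor Blimp-1, fell by 2.08 ± 0.25 in CD4 cells (adjusted p = 4.81e-05) and differed by -0.69 ± 0.25 in CD8 cells (adjusted p = 0.081, and called without CD4 Foxp3-positive replicate B or C or with a replicate block, dim genes left out or 2 groups alone, down to 0.0155). Nfil3, a bZIP factor, fell by 2.05 ± 0.18 in CD4 cells (adjusted p = 2.40e-06) and differed by -0.48 ± 0.18 in CD8 cells (adjusted p = 0.0824, and called without CD8 control replicate C or dim genes, down to 0.00601). Hopx, a homeodomain protein found in type 1 memory cells, fell by 0.98 ± 0.09 in CD8 (adjusted p = 7.59e-06) and by 0.59 ± 0.09 in CD4 cells (adjusted p = 0.000426). Cbfb, the partner of the Runx factors, differed by -0.25 ± 0.10 in CD8 and 0.03 ± 0.10 in CD4 cells, and neither was called, although the CD8 one was without CD8 control replicate C or dim genes (adjusted p = 0.0461 and 0.0497).

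Of 17 known T-bet and Eomes targets, 5 rose and 8 fell in CD8 cells, and 3 rose and 10 fell in CD4 cells. Without CD8 Foxp3-positive replicate B, 3 rose in CD8 cells. Havcr2, the inhibitory receptor TIM-3 of type 1 cells, had 7.04 ± 0.14 in CD8 Foxp3-positive against 10.07 ± 0.21 in CD8 control cells, and 5.20 ± 0.11 in CD4 Foxp3-positive against 10.65 ± 0.14 in CD4 control cells. It fell by 3.04 ± 0.12 in CD8 (adjusted p = 5.03e-09) and by 5.45 ± 0.12 in CD4 cells (adjusted p = 2.12e-11). Gzmb, the cytotoxic protease granzyme B, fell by 4.54 ± 0.39 in CD4 (adjusted p = 2.13e-06) and by 1.44 ± 0.39 in CD8 cells (adjusted p = 0.0184). The CD8 call was lost without CD8 Foxp3-positive replicate C or CD8 control replicate A or B (adjusted p = 0.054 to 0.0619, a range that includes the trended, robust prior). It was kept with the 2 groups fitted alone. The SE pools the spread of all 4 groups, and the SD of Gzmb was 1.16 in CD4 Foxp3-positive cells. It was 0.08 in CD8 Foxp3-positive and 0.16 in CD8 control cells, whose arrays did not overlap (11.69 to 11.84 against 13.04 to 13.34). Xcl1, a chemokine that draws cross-presenting dendritic cells, rose by 5.10 ± 0.17 in CD8 (34.2-fold, adjusted p = 8.26e-10) and by 4.44 ± 0.17 in CD4 cells (21.7-fold, adjusted p = 1.87e-09). Cxcr3, the chemokine receptor used as a type 1 marker, differed by 0.14 ± 0.18 in CD8 and by -0.40 ± 0.18 in CD4 cells, and neither was called, although the CD4 difference was called without CD4 Foxp3-positive replicate C (adjusted p = 0.00516). Granzymes have close relatives, so their probes may read more than 1 gene.

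Between lineages, 8 of the 17 targets were higher in CD8 than in CD4 Foxp3-positive cells, where 2.41% of all genes were called as higher and 2.30% as lower. None of the 17 was lower by limma, nor had any an unadjusted p below 0.05 as lower. Among the 8, Gzmb was at 11.77 ± 0.08 in CD8 and 8.71 ± 1.16 in CD4 Foxp3-positive cells (3.06 ± 0.39, adjusted p = 0.00052). Cxcr3 was at 9.31 ± 0.18 in CD8 and 7.66 ± 0.44 in CD4 Foxp3-positive cells (1.65 ± 0.18, adjusted p = 0.000181). The lineage differences of Tbx21 and Eomes in the same cells were those given above, 0.13 and -0.07. In controls 7 of the 17 targets were already higher in CD8 than in CD4 cells, and 4 were lower. There 12.1% of all genes were called as higher and 8.76% as lower. Cxcr3 was at 9.16 ± 0.18 in CD8 and 8.05 ± 0.12 in CD4 controls, and Gzmb at 13.21 ± 0.16 and 13.25 ± 0.02.

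Interferon-γ signalling and response genes split by lineage. Of the 21 measured, 9 rose and 1 fell in CD8 cells, with a median difference of 0.22, and 1 rose and 12 fell in CD4 cells, with a median of -0.38. The single calls, Tap2 lower in CD8 and Gbp3 higher in CD4 cells (both chosen after their values were seen), were lost without some single arrays, Tap2 without CD8 Foxp3-positive replicate A or C or CD8 control replicate A or B, and Gbp3 without CD4 Foxp3-positive replicate A or C or CD4 control replicate C. The CD8 difference was above the CD4 difference for all 21, and 11 of these gaps were called, against none called the other way by limma, with 14 and 0 at an unadjusted p below 0.05. Irf1, Irf9, Irgm1 and Cd274 were called as higher in CD8 Foxp3-positive and lower in CD4 Foxp3-positive cells. For Irf9 the CD4 call (adjusted p = 0.0295) was lost without CD4 Foxp3-positive replicate A or B or CD4 control replicate B and with the 2 groups alone (adjusted p = 0.0595 to 0.126). In controls 12 of the 21 were lower in CD8 than in CD4 cells and none was higher (15 and 0 at an unadjusted p below 0.05). In Foxp3-positive cells limma called none between lineages, and 2 were higher and 2 lower at an unadjusted p below 0.05. The mean log2 level of the 21 genes per array was 8.96 to 9.02 in CD8 Foxp3-positive arrays against 8.57 to 8.68 in CD8 controls, and 8.87 to 9.12 in CD4 Foxp3-positive arrays against 9.29 to 9.43 in CD4 controls.

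Iigp1, a GTPase induced by interferon-γ, had 9.39 ± 0.19 in CD8 Foxp3-positive against 6.13 ± 0.66 in CD8 control cells, and 9.91 ± 0.53 in CD4 Foxp3-positive against 9.75 ± 0.33 in CD4 control cells. Only CD8 controls stood apart, with a rise of 3.27 ± 0.31 in CD8 cells (9.62-fold, adjusted p = 7.67e-06), a CD4 difference of 0.17 ± 0.31 (adjusted p = 0.769) and a called difference between them (3.10 ± 0.44, adjusted p = 0.000532). Irgm1, a related GTPase, rose by 0.65 ± 0.12 in CD8 (adjusted p = 0.00171) and fell by 0.90 ± 0.12 in CD4 cells (adjusted p = 0.000118). Socs1, the feedback inhibitor of the receptor's kinases, rose by 0.89 ± 0.15 in CD8 cells (adjusted p = 0.00064), and its CD4 difference of -0.38 ± 0.15 was not called (adjusted p = 0.0838), but was without CD8 control replicate C and under 3 other settings (adjusted p = 0.00537 to 0.0481). Irf1, an interferon regulatory factor chosen after its values were seen, rose by 0.72 ± 0.13 in CD8 (adjusted p = 0.00169) and fell by 0.56 ± 0.13 in CD4 cells (adjusted p = 0.00773). Cd274, the checkpoint ligand PD-L1 and likewise chosen afterwards, rose by 0.52 ± 0.13 in CD8 (adjusted p = 0.0143, and 0.0698 without CD8 Foxp3-positive replicate C) and fell by 0.74 ± 0.13 in CD4 cells (adjusted p = 0.00134). Psmb8, an immunoproteasome subunit, differed by -0.12 ± 0.08 in CD8 and -0.19 ± 0.08 in CD4 cells, and neither was called, although the CD4 one was with a trended, robust prior and without dim genes (adjusted p = 0.0345 and 0.0493). Ifng itself was lower in Foxp3-positive cells of both lineages.

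**Figure D5:**
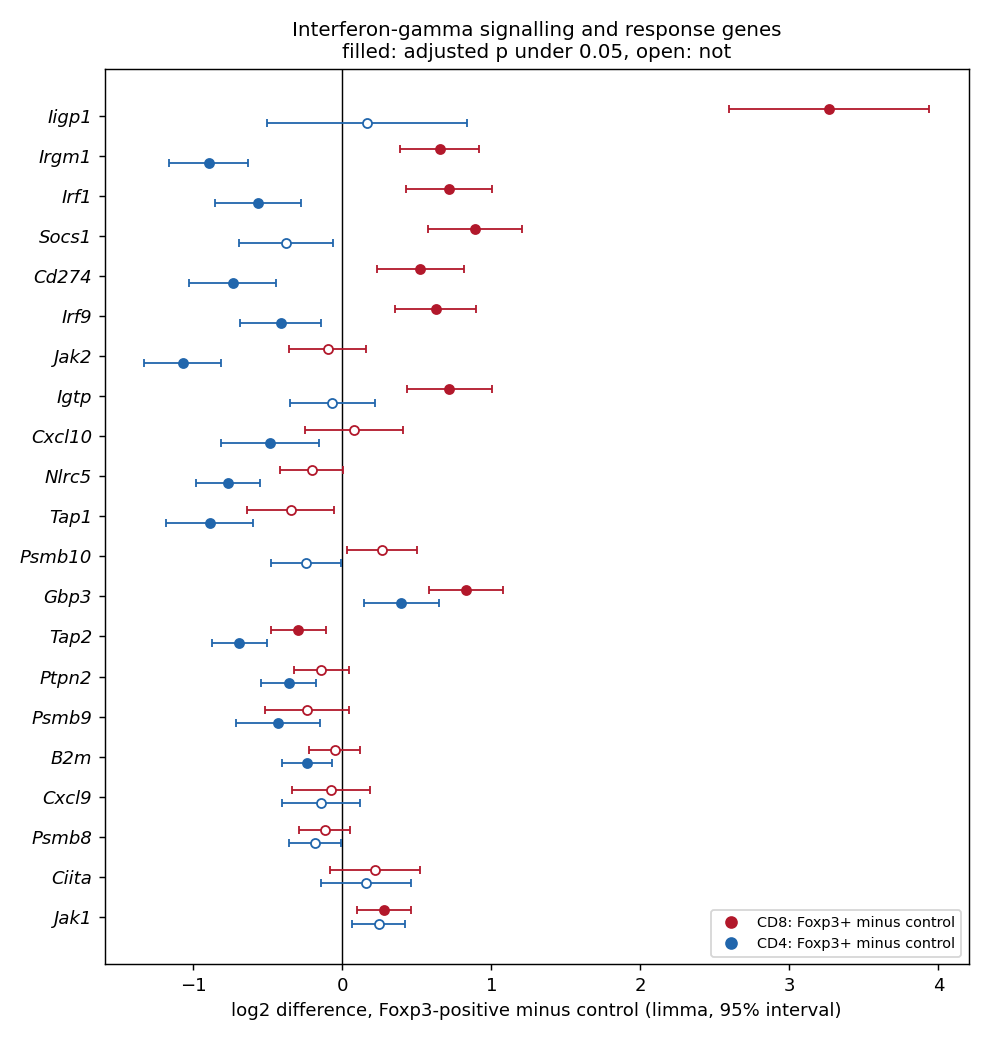
Log2 difference of Foxp3-positive minus control cells (x axis, with 95% intervals from limma) for the 21 interferon-γ signalling and response genes (y axis), in CD8 and CD4 cells. Filled points have an adjusted p under 0.05. The CD8 value lies to the right of the CD4 value for each gene.

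Genes listed around the restraint of type 1 genes, among them Smad genes and the Smad repressor Ski, moved in both directions. Of 11, 4 rose and 3 fell in CD8 cells, and 5 rose and 2 fell in CD4 cells. Ski, a repressor on Smad proteins, rose by 2.04 ± 0.10 in CD8 (adjusted p = 3.40e-08) and by 0.97 ± 0.10 in CD4 cells (adjusted p = 1.49e-05). Id3, which blocks E proteins, rose by 1.87 ± 0.21 in CD8 (adjusted p = 3.01e-05) and by 1.69 ± 0.21 in CD4 cells (adjusted p = 5.25e-05). Zfpm1 and Ezh2, chosen after their values were seen, were lower in CD8 Foxp3-positive cells. Ezh2 was lower in CD4 Foxp3-positive cells too, with no overlap of arrays. Zfpm1 was at 7.23 ± 0.02 against 8.85 ± 0.15 in CD8 controls, and at 7.74 ± 0.06 in CD4 Foxp3-positive against 7.54 ± 0.09 in CD4 control cells. Ezh2 was at 9.87 ± 0.17 against 10.78 ± 0.04 in CD8 controls, and at 10.14 ± 0.13 in CD4 Foxp3-positive against 10.59 ± 0.07 in CD4 control cells. Smad4, the shared mediator of TGF-β signals, differed by 0.04 ± 0.08 in CD8 and 0.13 ± 0.08 in CD4 cells, and neither was called. Without CD4 control replicate C, 1 factor of this list fell in CD4 cells.

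Of 7 factors of other T cell fates, 4 rose in CD8 cells, and 2 rose and 2 fell in CD4 cells. Foxp3, on whose reporter the cells were sorted, is among the rises of both lineages, so its rise was set by the design. Foxp3 checks the sort and was at 12.48 ± 0.05 in CD8 Foxp3-positive against 5.66 ± 0.59 in CD8 control cells, and at 12.44 ± 0.05 in CD4 Foxp3-positive against 5.76 ± 0.29 in CD4 control cells. Gata3, the type 2 factor that opposes T-bet, fell by 1.22 ± 0.12 in CD4 cells (adjusted p = 6.20e-06), and its CD8 difference was -0.10 ± 0.12 (adjusted p = 0.664). Maf, a factor of follicular and IL-10-producing cells, rose in CD8 cells by 3.53 ± 0.15 and fell in CD4 cells by 0.65 ± 0.15 (adjusted p = 0.0071). Irf4 differed by 0.09 ± 0.14 in CD8 and 0.17 ± 0.14 in CD4 cells, and neither was called.

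Among relatives of the receptor chains, 3 of 9 other class II cytokine receptors rose and none fell in CD8 cells by limma (none at an unadjusted p below 0.05), and 3 rose and 1 fell in CD4 cells. The CD4 fall, of Il20rb (-0.42 ± 0.12, adjusted p = 0.0214, chosen after its values were seen), was lost without CD4 Foxp3-positive replicate C or CD4 control replicate B or C (adjusted p = 0.0515 to 0.0895), and without CD8 control replicate C its CD8 difference was called as lower (adjusted p = 0.0362). Il10rb, a chain of the IL-10 receptor, rose by 0.79 ± 0.09 in CD8 (adjusted p = 2.42e-05) and by 0.76 ± 0.09 in CD4 cells (adjusted p = 2.23e-05). Ifnar2, a chain of the type I interferon receptor, rose by 0.47 ± 0.09 in CD8 (adjusted p = 0.00285) and by 0.48 ± 0.09 in CD4 cells (adjusted p = 0.00233). Ifngr2 rose 4.89-fold in CD8 and 2.40-fold in CD4 cells, against 1.72-fold and 1.70-fold for Il10rb.

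Among relatives of T-bet and Eomes, 1 of 14 other T-box genes rose and none fell in CD8 cells by limma (2 and 0 at an unadjusted p below 0.05), and 1 rose and 1 fell in CD4 cells. Tbx6 rose by 0.67 ± 0.19 in CD8 (adjusted p = 0.0218) and by 0.66 ± 0.19 in CD4 cells (adjusted p = 0.0213), calls lost in CD8 cells without CD8 Foxp3-positive replicate B or C or CD8 control replicate A or B (adjusted p = 0.0626 to 0.099), and in CD4 cells without CD4 Foxp3-positive replicate A or B or CD4 control replicate A (adjusted p = 0.0538 to 0.0775). The CD4 fall, of Tbx2 (-0.38 ± 0.12, adjusted p = 0.0328), was lost without CD4 Foxp3-positive replicate B or C or CD4 control replicate A or C, under both other normalizations and with the 2 groups alone (adjusted p = 0.0634 to 0.126). Mga, a T-box gene of wide expression, differed by 0.07 ± 0.09 in CD8 and 0.18 ± 0.09 in CD4 cells, and neither was called.

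Of 6 genes listed as neighbours of Ifng, 4 fell in CD8 cells and none rose by limma (none at an unadjusted p below 0.05), and 2 rose and 1 fell in CD4 cells. Nup107, a nuclear pore gene, fell by 0.74 ± 0.11 in CD8 cells (adjusted p = 0.000264) and differed by 0.04 ± 0.11 in CD4 cells. Mdm1 fell by 0.67 ± 0.11 in CD8 (adjusted p = 0.000602) and rose by 0.48 ± 0.11 in CD4 cells (adjusted p = 0.00546). Il22, a cytokine gene of this list, was at 1.77 ± 0.41 in CD8 Foxp3-positive against 1.85 ± 0.21 in CD8 control cells, and at 1.80 ± 0.16 in CD4 Foxp3-positive against 1.92 ± 0.57 in CD4 control cells, and was not called in either lineage. Without CD8 Foxp3-positive replicate B or C or CD8 control replicate A, 2 of these genes fell in CD8 cells.

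The labelled cell types were checked against their markers. Cd8a was at 12.54 ± 0.03 in CD8 and 7.54 ± 0.55 in CD4 Foxp3-positive cells, and at 11.79 ± 0.08 in CD8 and 6.51 ± 0.72 in CD4 controls. Cd4 was at 5.17 ± 0.25 in CD8 and 11.92 ± 0.11 in CD4 Foxp3-positive cells, and at 5.36 ± 0.58 in CD8 and 12.31 ± 0.12 in CD4 controls. In CD4 Foxp3-positive arrays A, B and C, Cd8a was 7.34, 7.11 and 8.16 and Gzmb 8.40, 7.74 and 9.99. Replicate C was also highest there for Il12rb1 and Il12rb2, while replicate A was highest for Ifng and Eomes. The make-up of that array was not tested. Cd3e, a T cell receptor component, lay between 12.40 and 12.93 in the group means. Of 5 T cell receptor genes 2 rose in CD8 cells, and 1 rose and 3 fell in CD4 cells, and of 4 coreceptor genes 1 fell in CD8 cells, and 1 rose and 2 fell in CD4 cells. Natural killer and innate lymphoid cells also use T-bet and Eomes. Of 9 of their markers 3 rose in CD8 cells, and 2 rose and 2 fell in CD4 cells, with mean levels per array of 6.49 to 6.65 in CD8 Foxp3-positive against 5.86 to 6.05 in CD8 control arrays and of 5.57 to 5.83 in CD4 Foxp3-positive against 5.27 to 5.95 in CD4 control arrays. Klri2 rose by 2.75 ± 0.21 in CD8 and 2.57 ± 0.21 in CD4 cells. Clnk rose in both too, with 8.44, 8.52 and 8.45 in CD8 Foxp3-positive against 6.94, 6.99 and 6.24 in CD8 control arrays. In CD4 cells Clnk had 7.72, 7.37 and 7.31 against 5.85, 6.38 and 5.41. Cd244a, Fcer1g and Ncr1 were chosen after their values were seen. Cd244a had 9.43, 9.37 and 9.18 in CD8 Foxp3-positive against 8.38, 8.38 and 7.64 in CD8 control arrays. Fcer1g fell in CD4 cells (adjusted p = 0.0358), a call lost under 6 settings (adjusted p = 0.063 to 0.154). The natural killer receptor Ncr1 lay between 4.67 and 4.90 in the group means and was not called in any comparison.

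Dendritic cells were present in the cultures. Of 12 dendritic cell markers 1 rose and 2 fell in CD8 cells, and 1 rose and 2 fell in CD4 cells, with mean levels per array of 6.10 to 6.28 in CD8 Foxp3-positive against 6.22 to 6.31 in CD8 control arrays and of 6.03 to 6.35 in CD4 Foxp3-positive against 6.36 to 6.45 in CD4 control arrays. Itgax, which encodes CD11c, fell by 1.76 ± 0.13 in CD8 cells (adjusted p = 1.02e-06) and differed by -0.07 ± 0.13 in CD4 cells. The other markers did not all follow it. In CD8 cells Batf3 fell (adjusted p = 0.016), while Cst3, chosen after its values were seen, rose (adjusted p = 0.0127). Both calls were lost without some single arrays. Cd209a, the brightest not called, had 9.25, 9.44 and 9.74 in CD8 Foxp3-positive against 9.22, 9.40 and 9.57 in CD8 control arrays. Of 9 macrophage and monocyte markers 3 rose and 1 fell in CD8 cells, and 2 rose and 1 fell in CD4 cells, with mean levels of 5.49 to 5.95 in CD8 Foxp3-positive against 5.31 to 5.43 in CD8 control arrays and 5.31 to 5.58 in CD4 Foxp3-positive against 5.22 to 5.42 in CD4 control arrays. Of 7 B cell markers 2 rose in CD8 cells, and 1 rose and 1 fell in CD4 cells, and with the replicate block 1 rose in CD8 cells. The CD8 call of Cd79a (adjusted p = 0.0492) was lost under 15 settings, among them the block and leaving out any array but CD8 Foxp3-positive replicate C or CD8 control replicate B (adjusted p = 0.0519 to 0.201). The B cell markers had mean levels of 5.10 to 5.29 in CD8 Foxp3-positive against 4.92 to 5.01 in CD8 control arrays and 5.02 to 5.10 in CD4 Foxp3-positive against 4.90 to 5.02 in CD4 control arrays. The part of these cells in the results was not tested.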

How the data were processed

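RNA of 12 samples of sorted mouse T cells was measured on Affymetrix arrays with the GeneChip WT Plus kit, from 250 ng of RNA, per the labels' protocols. The deposited log2 values came from the authors, who used RMA in Expression Console (submitters' processing notes). RMA gives arrays one distribution, so a shift in total RNA per cell would not show. Tool versions and genome build: not given in the sources used here. Array medians lay between 5.23 and 5.33.

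Of 34365 clusters, 23521 had 1 gene symbol in the platform annotation, 1814 had several and 9030 none listed. The brightest of several clusters stood for a gene, which left 22180 genes. Each of the 9 members had 1 cluster. One model with 4 group means was fitted in limma 3.58.1 under R 4.3.3 (lmFit, eBayes), two-sided, with Benjamini-Hochberg adjustment over all genes of each of the 5 comparisons and a threshold of 0.05. It was tested on simulated data. An exact permutation test of 3 against 3 arrays cannot go below 0.1.

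The members and the 15 lists (165 entries, 151 measured) were chosen with earlier results of these data known. Named besides the members were, from each list, up to 2 genes with the largest called difference in CD8 and 2 in CD4 cells and the brightest not called. Also named were the 3 genes, among the 1705 compared, most correlated with each of Tbx21, Eomes, Ifng and Il12rb2. Not all of those are described, and a few other list genes are named outside this rule (Il18r1, Irf1, Irf9, Cd274, Tap2, Gbp3, Il20rb, Ncr1, Cd244a, Fcer1g, Cst3, Zfpm1, Ezh2). Promoters came from RefSeq for 8 of the 9 members. Alternatives were leaving out each array, adjusting over all clusters, a mean over clusters, a trended robust prior, a filter on dim genes, 2 other normalizations, 2 groups alone and a replicate block. Replicate letters were not taken as pairs in the main model (see the closing part). No batch or scan date is labelled, so none was tested. Scanner files were not used here.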

Additional observations from a re-analysis of the deposited data

Results flagged for a closer look

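Results of 4 members differed between the lineages by a test of the difference itself, as the Foxp3-positive minus control difference in CD8 cells minus that in CD4 cells. The value was 1.40 for Ifng (-2.26 in CD8 and -3.66 in CD4 cells), 2.43 for Il12rb1 (-0.44 in CD8 and -2.87 in CD4 cells), 0.829 for Hlx (-0.13 in CD8 and -0.96 in CD4 cells) and 1.03 for Ifngr2 (2.29 in CD8 and 1.26 in CD4 cells). For Ifng the call was lost without any 1 of 5 arrays (adjusted p = 0.0501 to 0.0548). Its level in every Foxp3-positive array was below the medians of the arrays, so its 2 falls may be understated and their difference is uncertain. In controls CD8 minus CD4 was -1.50 for Ifng, -1.74 for Il12rb1, -0.83 for Hlx and -1.77 for Ifngr2. Cell type and days of culture changed together and cannot be told apart.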

How the results depend on the processing

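Of 45 results of the members (9 genes in 5 comparisons), 33 kept their side of the threshold under 8 other settings and without each of 12 arrays (7 other settings for the difference of effects, which needs all 4 groups), and none changed its direction as a called value. The changed ones are given with their genes in the report. Of 740 results of the list genes, computed under the same settings as an addition chosen after seeing the data, 147 changed a call under some setting and none reversed. The count of genes called between CD8 and CD4 Foxp3-positive cells was 1044 and lay between 674 and 1145 with an array left out, lowest without CD8 Foxp3-positive replicate B (674) and also over 1.5 times lower without CD4 Foxp3-positive replicate A, and between 808 and 1414 under other settings. Members called higher in CD4 Foxp3-positive than CD4 control cells were 2, with 1 when the 2 groups were fitted alone and 1 to 2 with an array left out. Members with a called lower CD8 than CD4 effect were 0, and 0 to 1 with an array left out. Members higher in CD8 than CD4 Foxp3-positive cells were 1, with 3 under a trended, robust prior, 3 without dim genes, 0 with the 2 groups alone and 0 to 2 with an array left out. Members higher in CD8 than CD4 controls were 3, and 1 to 3 with an array left out. With the replicate block 4359 genes were called in CD8, 4872 in CD4, 2921 for the difference of effects, 989 between Foxp3-positive lineages and 4595 between controls, against 4430, 4985, 2993, 1044 and 4636 without it. Same-letter arrays had correlations of deviations between -0.102 and 0.137 (median 0.034), with 2 of 18 over 0.1. Other-letter arrays had values between -0.14 and 0.088 (median -0.0061). Between CD8 control and CD8 Foxp3-positive arrays the same-letter values were 0.054, 0.135 and 0.137 for A, B and C. Letters were not taken as pairs in the main model, although a weak pairing may remain. Between Foxp3-positive and control cells, counts of calls in the marker lists changed by at most 1 with a single array left out. Other normalizations moved the median of all genes by at most 0.046. With 3 arrays a group, small differences such as those of Stat4 and Ifngr1 have wide intervals for their size, and no background level was in the values, so low levels cannot be called absent.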
